A study of Homo sapiens with 6 samples.

Results

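The 10 genes described here encode NRF2 and the proteins around it, chosen by gene symbol from 58656 rows of an RNA sequencing table. They are NFE2L2 (which encodes NRF2), its relatives NFE2L1 and NFE2L3, the inhibitors KEAP1 and BACH1, the small MAF partners MAFF, MAFG and MAFK, the autophagy receptor SQSTM1 and the marker target NQO1. Each symbol matched 1 row, and all 10 rows passed the filter on low counts with at least 317 counts in every library. The cells were MDA-MB-231, an established human line of triple-negative breast cancer. They received mitocurcumin, a derivative of curcumin directed to mitochondria, at 5 µM for 9 hours in 3 libraries, and the DMSO vehicle for the same 9 hours in 3 further libraries. The labels call the replicates biological but do not say that they were separate cultures, so p-values measure the spread between these libraries.

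NRF2 is a basic leucine zipper transcription factor of the cap'n'collar (CNC) family. KEAP1 binds NRF2 and hands it to the CUL3 ubiquitin ligase for destruction, and electrophiles that modify cysteines of KEAP1 let NRF2 accumulate. In the nucleus NRF2 pairs with a small MAF protein and binds antioxidant response elements, where BACH1, a repressor that lets go when it binds heme, occupies the same sites. The protein p62, product of SQSTM1, binds KEAP1 and takes it to autophagy. NFE2L1, held in the membrane of the endoplasmic reticulum, activates proteasome genes when the proteasome is impaired. Much of this control acts on proteins, which an mRNA measurement does not show.

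The libraries held 23146822 to 29104681 counts each. The line's markers were VIM, CD44, EGFR, CAV1, AXL, ZEB1, KRT8 and KRT18. In CPM, counts scaled to a common library total, they summed to 7052 to 7272 in mitocurcumin libraries and 6953 to 6992 in vehicle libraries. Of the 8, 2 were called higher (25%) and 1 lower (12.5%), against 14.7% and 17.8% of all tested genes. EGFR and ZEB1 rose by 0.28 ± 0.06 and 0.26 ± 0.06 on the log2 scale, and KRT8 fell by 0.15 ± 0.05. ESR1 and PGR, receptor genes listed as low in the line, had 0 to 9 counts a library. The other genes listed as low in the line were present, with 28 to 74 counts for CDH1, 225 to 343 for GATA3 and 442 to 629 for EPCAM. GATA3 was lower after mitocurcumin, by 0.57 ± 0.12 on the log2 scale, and CDH1 and EPCAM were not called. Of 10 markers of blood, endothelial, fibroblast and liver cells, HBB was at 0 throughout and 7 did not pass the filter. Their sum was 12.1 to 12.4 CPM after mitocurcumin and 18.3 to 22.03 CPM with vehicle, of which PECAM1 made up 60.3%. PECAM1 was itself lower after mitocurcumin, by 1.01 ± 0.14 on the log2 scale, at 6.42 against 12.9 CPM. LYZ and PTPRC were tested and not called. The part of these in any result was not tested, and in bulk RNA fewer cells of a type and less RNA per cell cannot be told apart. The nuclear RNA NEAT1 was higher after mitocurcumin, by 0.65 ± 0.07 on the log2 scale. Of the same list, MALAT1 at 0.14 ± 0.26, KCNQ1OT1 at 0.03 ± 0.07 and MEG3 at -0.16 ± 0.38 were not called. The part of nuclear RNA in the results was not tested. The heading over mitocurcumin replicate 2 carries a number far from those over the remaining 5 columns.

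After mitocurcumin the mRNA of most of the network was higher and that of KEAP1 lower. SQSTM1 more than doubled, MAFG and MAFF came close to doubling, and NFE2L1, NFE2L2 and BACH1 rose by smaller amounts. NFE2L3 and NQO1 rose by little, KEAP1 fell, and MAFK was not called. In the quasi-likelihood test of edgeR, adjusted by Benjamini-Hochberg over all genes, 8 of the 10 were higher and 1 was lower at an adjusted p under 0.05, against 14.7% of 16481 tested genes higher and 17.8% lower, together 32.5%. In CPM the 2 groups of libraries did not overlap for any of the 10, with 9 higher and 1 lower, against 44.9% of all tested genes (21.2% higher and 23.7% lower). The median log2 fold change was 0.57 over the 10 genes and -0.0059 over all tested genes.

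**Figure D1:**
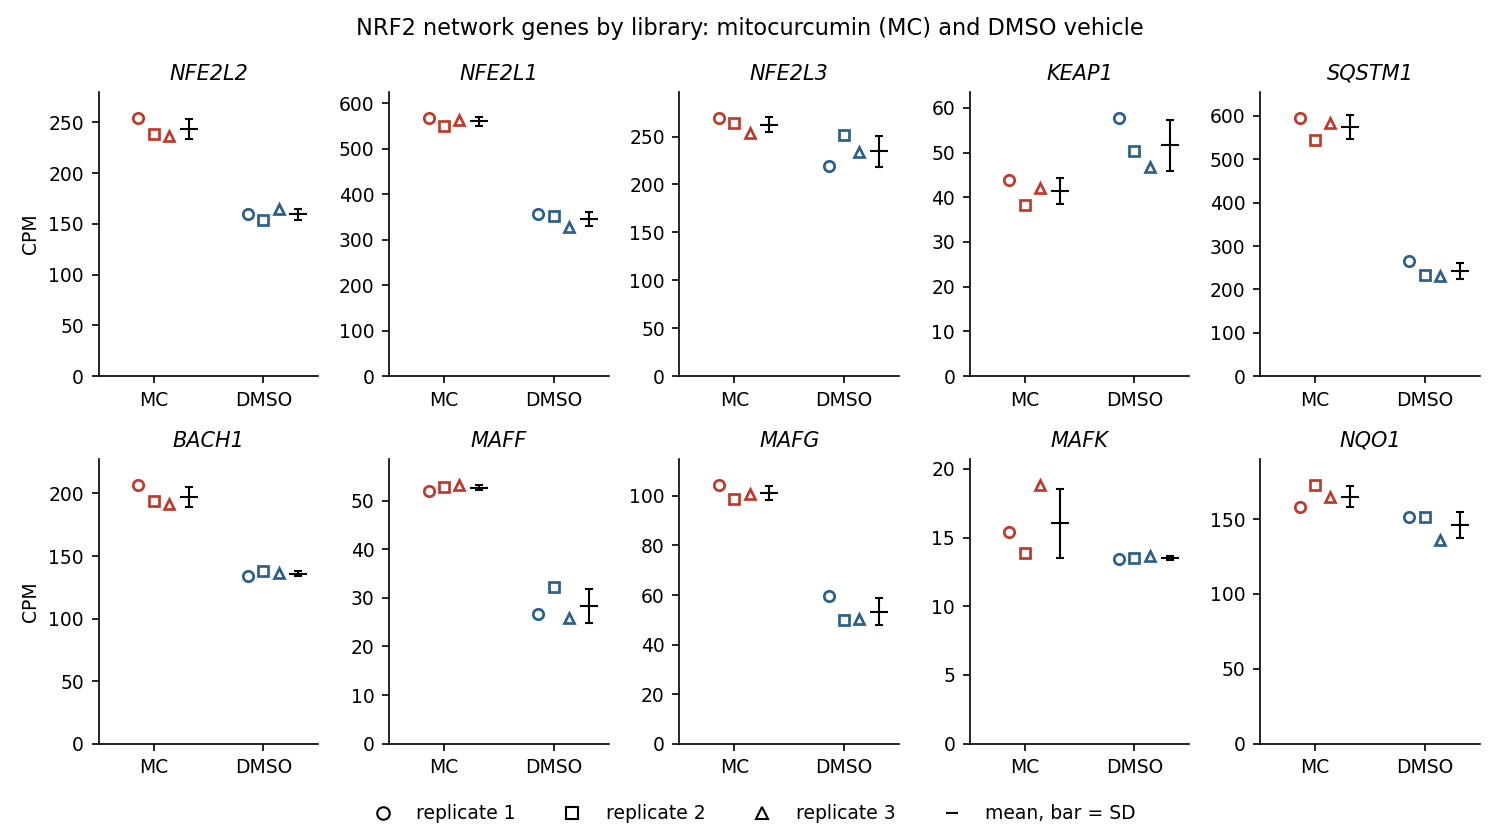
CPM of each gene (vertical axis, from 0) in the 3 mitocurcumin (MC) libraries at left and the 3 DMSO libraries at right, with symbols for replicates and the mean ± SD in black. SQSTM1 shows the widest gap between the groups, from 544 to 596 CPM after mitocurcumin against 231 to 264 CPM with vehicle, and KEAP1 is the gene that lies lower after mitocurcumin.

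NFE2L2, the gene of NRF2 itself (Entrez 4780, GRCh38 chromosome 2, 177230303 to 177264727, minus strand), had 255, 239 and 237 CPM in mitocurcumin libraries, against 160, 153 and 165 CPM in vehicle libraries. All 3 treated libraries lay well above all 3 vehicle libraries, and the spread within a group was small beside the gap. The means were 243 ± 9.76 CPM after mitocurcumin and 159 ± 5.68 CPM with vehicle (SD, n = 3 each), a log2 fold change of 0.61 ± 0.05 (SE), or 1.53-fold, with an edgeR adjusted p of 2.3e-07. The row of MIR3128, a microRNA inside NFE2L2, was at 0 in all libraries.

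NFE2L1, the factor for proteasome genes (Entrez 4779, chromosome 17, 48048359 to 48061545, plus strand), is a different gene from NRF1, the nuclear respiratory factor, although it carries that alias. It had 568, 549 and 564 CPM after mitocurcumin, against 357, 352 and 327 CPM with vehicle. The treated values were tightly grouped and clear of the vehicle values. NFE2L1 rose by 0.70 ± 0.05 on the log2 scale, or 1.62-fold, with an edgeR adjusted p of 4.1e-08.

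NFE2L3, a less studied member of the family (Entrez 9603, chromosome 7, 26152198 to 26187137, plus strand), had 269, 264 and 254 CPM in mitocurcumin libraries and 219, 251 and 234 CPM in vehicle libraries. The lowest treated library and the highest vehicle library nearly met. The rise of 0.16 ± 0.06 on the log2 scale just passed the threshold, with an edgeR adjusted p of 0.0419. It was lost without mitocurcumin replicate 1 (0.12), mitocurcumin replicate 2 (0.0969), mitocurcumin replicate 3 (0.0665), vehicle replicate 1 (0.0679) or vehicle replicate 3 (0.0731), values that are edgeR adjusted p, in a range of 0.0218 to 0.12 over the alternatives.

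The CNC genes thus did not move by like amounts. Within a library, the log2 ratio of NFE2L1 to NFE2L3 counts was 1.08, 1.06 and 1.15 after mitocurcumin and 0.70, 0.49 and 0.48 with vehicle. The ratio was higher in every treated library, by 0.54 ± 0.08 (SE). This pair was chosen after its values were seen, so no test is given.

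KEAP1, the adaptor that delivers NRF2 to CUL3 (Entrez 9817, chromosome 19, 10486125 to 10503356, minus strand), had 43.9, 38.3 and 42.2 CPM after mitocurcumin, against 57.8, 50.4 and 46.7 CPM with vehicle. The groups were apart by less than the spread among the vehicle libraries. KEAP1 fell by 0.32 ± 0.09 on the log2 scale, with an edgeR adjusted p of 0.00999. Without mitocurcumin replicate 2, its lowest library, the change was -0.25 and the call was lost. The edgeR adjusted p was then 0.0877, the highest of a range from 0.00188 over the alternatives. Without vehicle replicate 1, its highest library, the change was -0.23, the smallest over the alternatives, and the call held (edgeR adjusted p = 0.0176).

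The log2 ratio of NFE2L2 to KEAP1 counts within a library does not depend on scaling between libraries. It was 2.54, 2.64 and 2.49 after mitocurcumin and 1.47, 1.60 and 1.82 with vehicle. Every treated library lay higher, by 0.92 ± 0.11 on average, a 1.90-fold higher ratio. The two-sided exact permutation p was 0.1, the smallest that 3 libraries against 3 allow, and 0.1 after adjustment over the 2 ratios tested.

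The 250 bases before the downstream start site of KEAP1 are shown because they held 2 matches to the core of the antioxidant response element, TGACNNNGC, searched on both strands from 250 bases before to 50 after each RefSeq start site (GRCh38.p14). Matches are in capitals, at chr19:10502772-10503021, minus strand.
KEAP1: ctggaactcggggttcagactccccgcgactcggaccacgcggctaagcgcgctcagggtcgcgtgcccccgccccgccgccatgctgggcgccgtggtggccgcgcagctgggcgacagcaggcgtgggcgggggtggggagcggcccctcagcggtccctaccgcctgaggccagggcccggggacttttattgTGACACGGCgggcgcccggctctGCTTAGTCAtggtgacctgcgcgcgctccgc
The matches began 54 and 31 bases before the start site, the second on the opposite strand. The core occurred in 13.3% of all 35116 such promoter windows and in 2 of the 17 windows of these genes. The 17 include no window of MAFK, which was not searched. The upstream start site of KEAP1 had no match to any of the 5 motifs searched. A match describes letters in the window and does not show binding.

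SQSTM1, the gene of p62 (Entrez 8878, chromosome 5, 179806393 to 179838078, plus strand), changed most of the 10. It had 596, 544 and 584 CPM in mitocurcumin libraries, against 264, 234 and 231 CPM in vehicle libraries. All treated values were more than double any vehicle value. The log2 fold change was 1.24 ± 0.06, or 2.36-fold, with an edgeR adjusted p of 2.2e-10, and only SQSTM1 among the 10 reached a 2-fold change. MGAT4B and MRNIP overlap its ends on the opposite strand by 474 and 803 bases. Neither passed the test: MGAT4B was at 0.20 ± 0.11 on the log2 scale (edgeR adjusted p = 0.211) and MRNIP at -0.51 ± 0.23 (edgeR adjusted p = 0.108). MGAT4B had 1309 to 2154 counts a library and MRNIP 40 to 78, beside 5422 to 16847 for SQSTM1. The use of strand in counting is not stated, so reads in the overlaps cannot be told apart.

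BACH1, the heme-sensitive repressor (Entrez 571, chromosome 21, 29298922 to 29361894, plus strand), had 207, 194 and 191 CPM after mitocurcumin, against 134, 138 and 136 CPM with vehicle. The groups stood apart by many times the spread of the vehicle libraries. BACH1 rose by 0.54 ± 0.05 on the log2 scale, or 1.45-fold, with an edgeR adjusted p of 9.9e-07. The log2 ratio of NFE2L2 to BACH1 counts was 0.30, 0.30 and 0.31 after mitocurcumin and 0.26, 0.15 and 0.28 with vehicle, a difference of 0.08 ± 0.04 that fell to 0.04 without vehicle replicate 2. The two-sided exact permutation p was 0.1, again the smallest possible.

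The 250 bases before the first start site of BACH1 are shown because they held the single AP-1 match, TGANTCA, in the 17 windows searched. They lie at chr21:29298672-29298921, plus strand.
BACH1: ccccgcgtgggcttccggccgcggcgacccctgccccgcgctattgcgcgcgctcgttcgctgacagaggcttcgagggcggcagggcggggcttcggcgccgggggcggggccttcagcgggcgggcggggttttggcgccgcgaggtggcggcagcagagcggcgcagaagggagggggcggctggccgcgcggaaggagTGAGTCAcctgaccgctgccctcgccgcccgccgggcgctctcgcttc
The match began 48 bases before the start site and reads the same motif on both strands. AP-1 matches occurred in 7.71% of all promoter windows. The BACH1 windows at its 2 further start sites had no match.

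Among the small MAF genes, whose proteins lack an activation domain and serve as partners of both NRF2 and BACH1, MAFG and MAFF rose and MAFK was not called. MAFG (Entrez 4097, chromosome 17, 81918270 to 81927735, minus strand) had 104, 98.6 and 101 CPM after mitocurcumin, against 59.7, 49.9 and 50.3 CPM with vehicle. MAFF (Entrez 23764, chromosome 22, 38201994 to 38216511, plus strand) had 52.1, 52.8 and 53.1 CPM after mitocurcumin, against 26.7, 32.3 and 25.9 CPM with vehicle. For both genes every treated library was far above every vehicle library. MAFG rose by 0.93 ± 0.07 on the log2 scale, or 1.90-fold, with an edgeR adjusted p of 5.5e-08. MAFF rose by 0.90 ± 0.09, or 1.86-fold, with an edgeR adjusted p of 8.8e-07.

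MAFK (Entrez 7975, chromosome 7, 1530702 to 1543043, plus strand) had 15.4, 13.9 and 18.8 CPM after mitocurcumin, against 13.4, 13.5 and 13.7 CPM with vehicle. The vehicle libraries were nearly level, and the treated ones were spread and lay just above them. The change was 0.25 ± 0.12 on the log2 scale, with a 95% interval from -0.01 to 0.50 and an edgeR adjusted p of 0.137, and none of the 18 alternatives called it. The size rested on single libraries, with 0.11 without mitocurcumin replicate 3 and 0.35 without mitocurcumin replicate 2. A rise of up to 0.50 on the log2 scale lies within that interval. LOC100128653, a noncoding row that overlaps 2428 bases of MAFK on the opposite strand, rose by 1.77 ± 0.28 (edgeR adjusted p = 1.5e-04), with 126, 107 and 84 counts after mitocurcumin against 38, 33 and 18 with vehicle. The use of strand in counting is not stated, so reads of that row and of MAFK cannot be told apart, beside 325 to 543 MAFK counts after mitocurcumin and 317 to 349 with vehicle.

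The log2 ratio of MAFG to MAFK counts was 2.75, 2.83 and 2.42 after mitocurcumin and 2.15, 1.89 and 1.88 with vehicle. Every treated library had the higher ratio, by 0.70 ± 0.15 (SE). This pair too was chosen after its values were seen, and no test is given.

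The promoters of MAFF and MAFG are shown because both genes rose and both hold the E-box CACGTG, which is its own reverse complement. Capitals mark the E-box and, in MAFF, a match to the antioxidant response element core on the opposite strand. The MAFF sequences are chr22:38201744-38201993 and chr22:38202770-38203019, plus strand, at its first and next start site, and the MAFG sequence is chr17:81927736-81927985, minus strand.
MAFF first start: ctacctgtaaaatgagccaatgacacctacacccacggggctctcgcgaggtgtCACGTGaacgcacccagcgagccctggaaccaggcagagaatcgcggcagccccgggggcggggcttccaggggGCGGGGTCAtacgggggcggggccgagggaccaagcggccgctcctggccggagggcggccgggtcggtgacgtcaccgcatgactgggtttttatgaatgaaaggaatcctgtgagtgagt
MAFF next start: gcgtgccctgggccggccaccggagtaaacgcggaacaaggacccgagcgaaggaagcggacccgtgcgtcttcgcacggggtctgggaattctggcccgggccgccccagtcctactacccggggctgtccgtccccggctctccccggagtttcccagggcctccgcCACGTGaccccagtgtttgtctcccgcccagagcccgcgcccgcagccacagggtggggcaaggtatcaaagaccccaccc
MAFG: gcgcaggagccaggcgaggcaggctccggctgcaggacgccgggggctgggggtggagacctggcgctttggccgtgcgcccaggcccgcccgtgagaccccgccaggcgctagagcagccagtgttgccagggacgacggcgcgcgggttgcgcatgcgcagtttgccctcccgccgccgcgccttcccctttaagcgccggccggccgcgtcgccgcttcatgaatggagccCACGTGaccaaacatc
The E-boxes began 196 and 81 bases before the MAFF start sites and 16 bases before that of MAFG, and the core match in MAFF began 122 bases before its first start site. The E-box occurred in 7.26% of all promoter windows and in 3 of the 17 windows of these genes. It was in no window of SQSTM1, NFE2L1, NFE2L2 or BACH1, which also rose, and a link of the E-box to the rises was not tested. The CEBP-ATF motif TGATGNAA and the heat shock motif GAANNTTC, at 3.62% and 6.77% of all windows, had no match in the 17. The windows of NFE2L1, NFE2L2, NFE2L3, SQSTM1 and NQO1 held none of the 5 motifs, which says only that these letters are not in these windows. No window was available for MAFK, so its promoter was not searched.

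NQO1, a quinone reductase that serves as the standard readout of NRF2 activity (Entrez 1728, chromosome 16, 69709401 to 69726560, minus strand), had 158, 172 and 165 CPM after mitocurcumin, against 151, 152 and 136 CPM with vehicle. The lowest treated library was close to the highest vehicle library. NQO1 rose by 0.17 ± 0.06 on the log2 scale, or 1.13-fold, with an edgeR adjusted p of 0.0329. The call was lost without mitocurcumin replicate 2 (0.133), mitocurcumin replicate 3 (0.093) or vehicle replicate 3 (0.116), values that are edgeR adjusted p, in a range of 0.00404 to 0.133 over the alternatives. The gene is also counted among the aryl hydrocarbon receptor's targets.

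**Figure D2:**
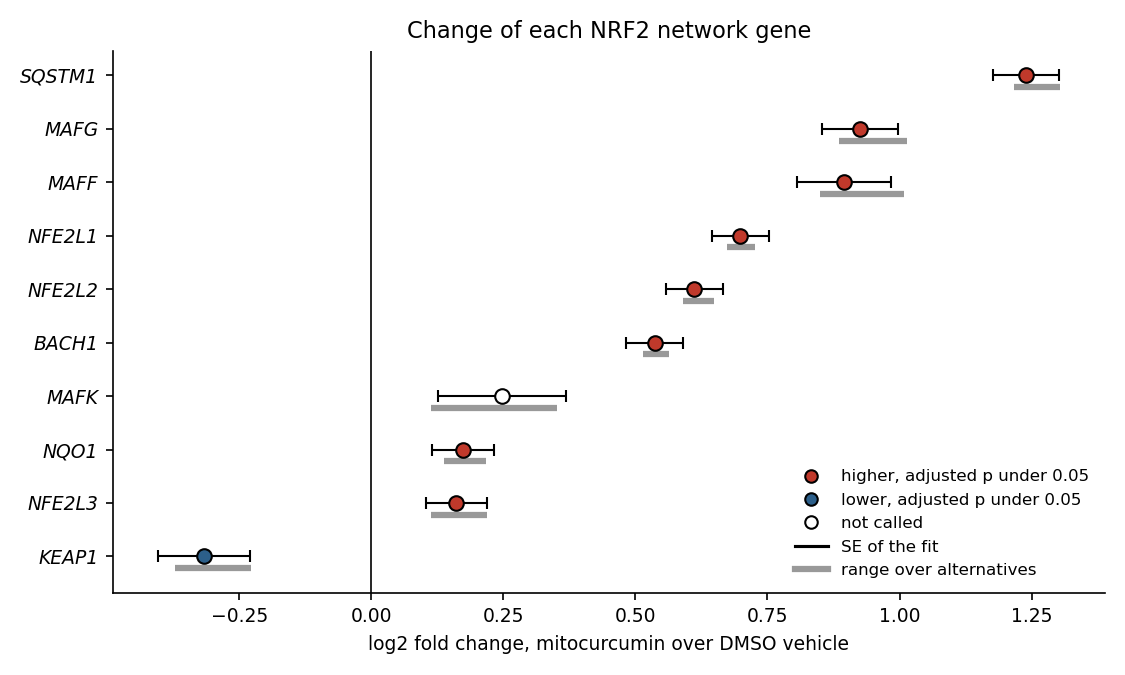
Log2 fold change of mitocurcumin over vehicle for each gene (horizontal axis), as a point with the SE of the edgeR fit; colour gives the call, and the grey bar the range over 18 alternatives. SQSTM1 is at the top with 1.24, and KEAP1, at -0.32, is the only gene left of 0.

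Per kilobase of exon, SQSTM1, NFE2L1 and NFE2L3 had the highest levels of the 10 genes in both groups. In mitocurcumin libraries the levels in CPM per kb were 165 ± 7.83 for SQSTM1, 105 ± 1.86 for NFE2L1 and 71.2 ± 2.13 for NFE2L3 (SD, n = 3), with no overlap between neighbours. Next came NFE2L2 at 53.7 ± 2.16 CPM per kb and NQO1 at 52.8 ± 2.32 CPM per kb, whose libraries overlapped. BACH1 followed at 33.7 ± 1.39 CPM per kb. MAFG and MAFF, at 19.4 ± 0.545 and 19.1 ± 0.198 CPM per kb, overlapped, and KEAP1 and MAFK came last at 13.1 ± 0.908 and 4.76 ± 0.752 CPM per kb.

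In vehicle libraries SQSTM1, NFE2L1 and NFE2L3 were close together, at 70.0 ± 5.29, 64.5 ± 2.96 and 63.7 ± 4.40 CPM per kb, and neighbours overlapped. NQO1, at 46.8 ± 2.80 CPM per kb, was above NFE2L2, at 35.2 ± 1.25 CPM per kb, and KEAP1, at 16.4 ± 1.79 CPM per kb, was above MAFF and MAFG, at 10.3 ± 1.26 and 10.2 ± 1.07 CPM per kb. KEAP1 and the MAFF and MAFG genes therefore changed places between the groups. These levels use exon lengths of GENCODE v29 transcripts and not the gene model used for counting, so they are approximate.

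The 3 small MAF genes together summed to 43.3 ± 1.02 CPM per kb after mitocurcumin and 24.5 ± 1.20 CPM per kb with vehicle (SD, n = 3 each). MAFK made up 11.0 ± 1.49% of that sum after mitocurcumin and 16.4 ± 0.991% with vehicle. The share of MAFG was 44.8 ± 1.13% against 41.7 ± 3.89%, and its libraries overlapped between the groups. NFE2L1, NFE2L2, NFE2L3 and BACH1 summed to 263 ± 6.40 CPM per kb after mitocurcumin and 187 ± 4.17 CPM per kb with vehicle. Within that sum NFE2L1 had 39.8 ± 0.782% against 34.6 ± 1.52%, and NFE2L3 27.0 ± 0.473% against 34.1 ± 1.71%. BACH1 made up 12.8 ± 0.219% after mitocurcumin and 12.5 ± 0.156% with vehicle.

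**Figure D3:**
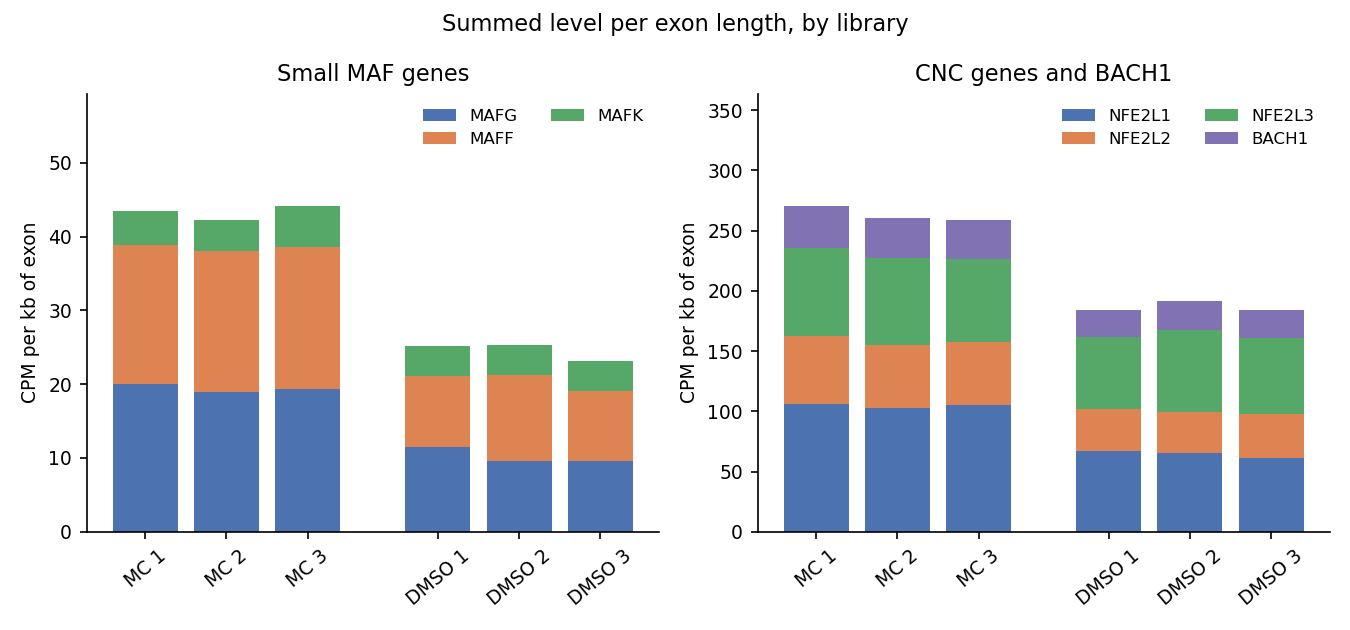
Stacked levels in CPM per kb of exon (vertical axis, from 0) of the small MAF genes at left and of the CNC genes with BACH1 at right, for each mitocurcumin (MC) and DMSO library. The small MAF stack is 42.2 to 44.2 after mitocurcumin and 23.1 to 25.3 with vehicle, and the MAFK segment differs little between libraries.

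**Figure D4:**
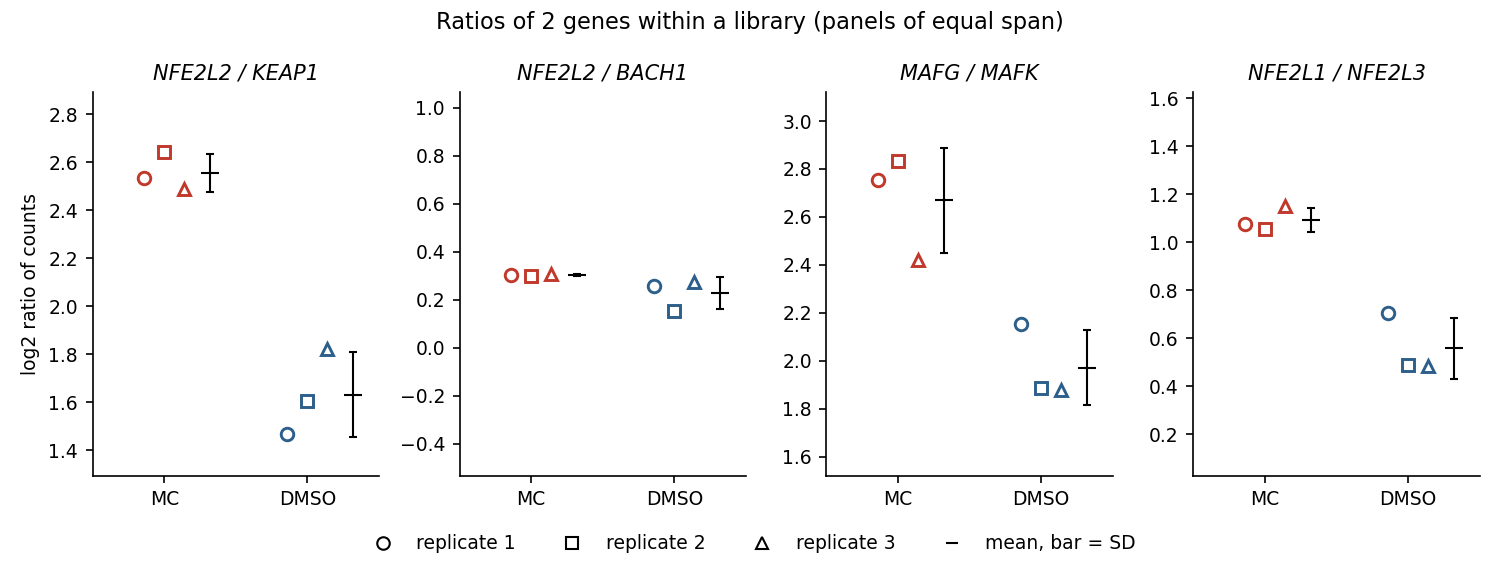
Log2 ratio of the counts of 2 genes within each library (vertical axis) for 4 pairs, with mitocurcumin (MC) libraries at left and DMSO libraries at right in each panel and the mean ± SD in black. The ratio of NFE2L2 to KEAP1 lies between 2.49 and 2.64 after mitocurcumin and between 1.47 and 1.82 with vehicle, while that of NFE2L2 to BACH1 differs by 0.08.

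Beyond these 10 genes, the pathway was read through 11 lists of 157 distinct genes, of which 153 were tested, 37 were higher and 23 lower, or 24.2% and 15%, with a median log2 fold change of 0.05. Of 34 tested NRF2 targets, 14 were higher (41.2%) and 3 lower (8.82%), against 14.7% and 17.8% of all tested genes, with a median of 0.04. HMOX1, which breaks down heme and is repressed by BACH1, had 42.4, 31.5 and 34.4 CPM after mitocurcumin, against 6.44, 4.91 and 4.95 CPM with vehicle, a rise of 2.73 ± 0.14 on the log2 scale. SLC7A11, the cystine carrier for glutathione synthesis, had 346, 342 and 352 CPM after mitocurcumin, against 57.2, 61.1 and 62.7 CPM with vehicle, a rise of 2.52 ± 0.06. Both lay far apart between the groups, while 17 of the 34 targets were called in neither direction. AKR1C1, a ketosteroid reductase, fell by 0.62 ± 0.11, ABCC1, a glutathione-conjugate exporter, by 0.35 ± 0.06 and AKR1C3, a further reductase, by 0.28 ± 0.08. The call of AKR1C3 was lost without mitocurcumin replicate 1 (edgeR adjusted p = 0.099) or replicate 2 (0.0664), with 0.099 the highest over the alternatives. Among the 14 higher, TXN, thioredoxin, was lost without mitocurcumin replicate 2 (edgeR adjusted p = 0.0761), mitocurcumin replicate 3 (0.0757) or vehicle replicate 3 (0.0712), and is named here after its values were seen.

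Of 9 reductases related to NQO1 by function, 2 were higher (22.2%) and 1 lower (11.1%), against 14.7% and 17.8% of all tested genes. TXNRD1, cytosolic thioredoxin reductase, rose by 1.06 ± 0.06 on the log2 scale and AIFM2, which reduces ubiquinone at membranes, by 0.70 ± 0.09. POR, the electron donor of cytochrome P450 enzymes, fell by 0.27 ± 0.10, a call lost without any one mitocurcumin library or without vehicle replicate 1 or 2 (edgeR adjusted p of 0.092 to 0.153). With all libraries kept, POR was also lost with the size factors of DESeq2 (edgeR adjusted p = 0.0508), upper quartile scaling (0.0696), no filter beyond 1 count (0.0569) or a mean CPM of at least 1 (0.0572), and 0 of the 9 were then lower. NQO2, the closest relative of NQO1, was not called, at 0.15 on the log2 scale.

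Of 12 genes that lead to destruction of NRF2, 0 were higher and 5 lower (41.7%), against 14.7% and 17.8% of all tested genes, at a median log2 fold change of -0.13. GSK3A, a kinase that marks NRF2 for a separate ubiquitin ligase, had 55.4, 48.4 and 50.1 CPM after mitocurcumin, against 79.1, 61.3 and 65.3 CPM with vehicle, and fell by 0.42 ± 0.09. RBX1, the RING subunit of the CUL3 ligase, fell by 0.36 ± 0.11, CAND1, its exchange factor, by 0.23 ± 0.05, CUL3 by 0.21 ± 0.06 and CUL1 by 0.15 ± 0.05. The calls of GSK3A and CAND1 held in all alternatives. RBX1 was lost without mitocurcumin replicate 1 (edgeR adjusted p = 0.0902) or 3 (0.0799). CUL3 and CUL1 were lost without any one mitocurcumin library or without vehicle replicate 2 or 3, at edgeR adjusted p-values of 0.0571 to 0.147 for CUL3 and 0.118 to 0.212 for CUL1. With all libraries kept, CUL1 was also lost under 9 other alternatives, among them upper quartile scaling (0.122) and DESeq2 (adjusted p = 0.0858), so it was lost in 14 of 18. The number lower was 2 without mitocurcumin replicate 1 or 3, and 3 without mitocurcumin replicate 2, vehicle replicate 2 or vehicle replicate 3. Without vehicle replicate 1 it was 6, and 1 gene was higher.

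Of 11 proteins reported to bind KEAP1, 2 were higher (18.2%) and 1 lower (9.09%), against 14.7% and 17.8% of all tested genes. SESN2, a stress-induced sestrin that works with p62 on KEAP1, had 52.1, 45.9 and 43.4 CPM after mitocurcumin, against 5.85, 4.29 and 4.14 CPM with vehicle, a rise of 3.31 ± 0.13 on the log2 scale. CDKN1A, the cell cycle inhibitor p21, rose by 0.34 ± 0.09, and PTMA, a small acidic chromatin protein, fell by 0.31 ± 0.07. Of 12 coregulators, 1 was higher (8.33%) and 4 were lower (33.3%), against the same shares of all tested genes. NCOA3, a coactivator, rose by 0.45 ± 0.06. Among those that fell were RXRA, a nuclear receptor that binds NRF2, at -0.59 ± 0.11, MED16, a Mediator subunit, at -0.48 ± 0.17, and SMARCA4, a chromatin remodeller, at -0.29 ± 0.06. MED16 lost its call without any one mitocurcumin library or without vehicle replicate 1 or 3 (edgeR adjusted p of 0.0645 to 0.19), and its change was -0.24 without vehicle replicate 1. With all libraries kept, MED16 was also lost with upper quartile scaling (edgeR adjusted p = 0.0529), limma voom (adjusted p = 0.0772) and limma on the authors' normalized values (adjusted p = 0.057).

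The remaining CNC, BACH and MAF genes were scarce. NFE2, MAF and MAFA did not pass the filter, and BACH2 and NRL were tested and not called. BACH2 was at 3.64 ± 0.153 CPM after mitocurcumin and 2.57 ± 0.490 CPM with vehicle (SD, n = 3 each).

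Of 4 genes for the turnover and export of BACH1, 1 was higher (25%) and 0 lower, against 14.7% and 17.8% of all tested genes. RBCK1, a ubiquitin ligase that recognises heme-bound proteins, rose by 1.34 ± 0.09 on the log2 scale. It had 76.3, 73.1 and 69.1 CPM after mitocurcumin, against 33.1, 26.9 and 26.2 CPM with vehicle, with no overlap. Of 14 genes of heme synthesis and breakdown, 2 were higher (14.3%) and 3 lower (21.4%), against 14.7% and 17.8% of all tested genes. The number higher was 4 without vehicle replicate 1 and 1 without mitocurcumin replicate 1. HMOX1 was the largest rise there too, BLVRB, a biliverdin reductase, rose by 0.51 ± 0.14, and the call of BLVRB was lost without mitocurcumin replicate 1 (edgeR adjusted p = 0.0509). ALAD and CPOX, enzymes of heme synthesis, fell by 0.58 ± 0.08 and 0.54 ± 0.06, and HMOX2, the constitutive heme oxygenase, by 0.41 ± 0.08.

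Partners of p62 were the list with the largest share of rises, 9 of 16 (56.2%), against 14.7% of all tested genes, with a median log2 fold change of 0.32. The lists were chosen with earlier results of these data known, so this order of lists is description only. GABARAPL1 had 78.3, 68.6 and 74.6 CPM after mitocurcumin, against 24.9, 26.6 and 24.6 CPM with vehicle, a rise of 1.54 ± 0.08. MAP1LC3B, like GABARAPL1 a ubiquitin-like protein of the autophagosome membrane that p62 binds, rose by 1.25 ± 0.05. The 1 lower member (6.25%, against 17.8% of all tested genes) was RPTOR, the substrate-binding subunit of mTORC1, at -0.49 ± 0.09. These calls held in all alternatives.

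Of 10 genes that process or degrade NFE2L1, 3 were higher (30%) and 3 lower (30%), against 14.7% and 17.8% of all tested genes. OGT, a glycosyltransferase, rose by 0.39 ± 0.05 on the log2 scale, FBXW7, a ubiquitin ligase subunit, by 0.30 ± 0.08 and USP15, a deubiquitinase, by 0.18 ± 0.06. HCFC1, which brings OGT to its targets, fell by 0.50 ± 0.08, NGLY1, which removes the sugars of NFE2L1, by 0.20 ± 0.08 and SEL1L, of the retrotranslocation complex, by 0.19 ± 0.05. The calls of OGT and HCFC1 held in all alternatives. Of the other 4, FBXW7 was lost without mitocurcumin replicate 3 (edgeR adjusted p = 0.0628), SEL1L without mitocurcumin replicate 2 or vehicle replicate 3 (0.0568 to 0.0607), USP15 without any library other than vehicle replicate 3 (0.0721 to 0.103), and NGLY1 without any library other than vehicle replicate 1 (0.0729 to 0.259). With all libraries kept, NGLY1 was also lost under 10 other alternatives, among them all 3 other scalings (edgeR adjusted p of 0.0509 to 0.0944) and DESeq2 (adjusted p = 0.0699), so it was lost in 15 of 18. The number lower was 1 without mitocurcumin replicate 2 or vehicle replicate 3, and the number higher was 1 without mitocurcumin replicate 3.

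Changes among the proteasome genes were small. Of 35 subunits and assembly factors, 5 were higher and 2 lower, or 14.3% and 5.71%, against 14.7% and 17.8% of all tested genes, so the share higher was that of the background, with a median log2 fold change of 0.08. PSMD14, the deubiquitinase of the lid, had 207, 205 and 221 CPM after mitocurcumin, against 164, 178 and 177 CPM with vehicle, and rose by 0.29 ± 0.06. PSMD13 rose by 0.23 ± 0.06, PSMA1 by 0.21 ± 0.06, PSMB1 by 0.19 ± 0.05 and PSMA6 by 0.18 ± 0.06. PSMC6, an ATPase subunit, fell by 0.31 ± 0.06 and PSMA3 by 0.16 ± 0.06. PSMB1 lost its call without mitocurcumin replicate 3 (edgeR adjusted p = 0.0609), PSMA1 without mitocurcumin replicate 2 (0.062) or 3 (0.0645), and PSMA6 without mitocurcumin replicate 3 (0.193), vehicle replicate 2 (0.0582) or vehicle replicate 3 (0.0509). The count of higher members rested on single libraries, with 15 without vehicle replicate 1 and 2 without mitocurcumin replicate 3. PSMA3 lost its call without any one library other than mitocurcumin replicate 3 (edgeR adjusted p of 0.0502 to 0.226), and its call was also lost under 8 other alternatives.

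**Figure D5:**
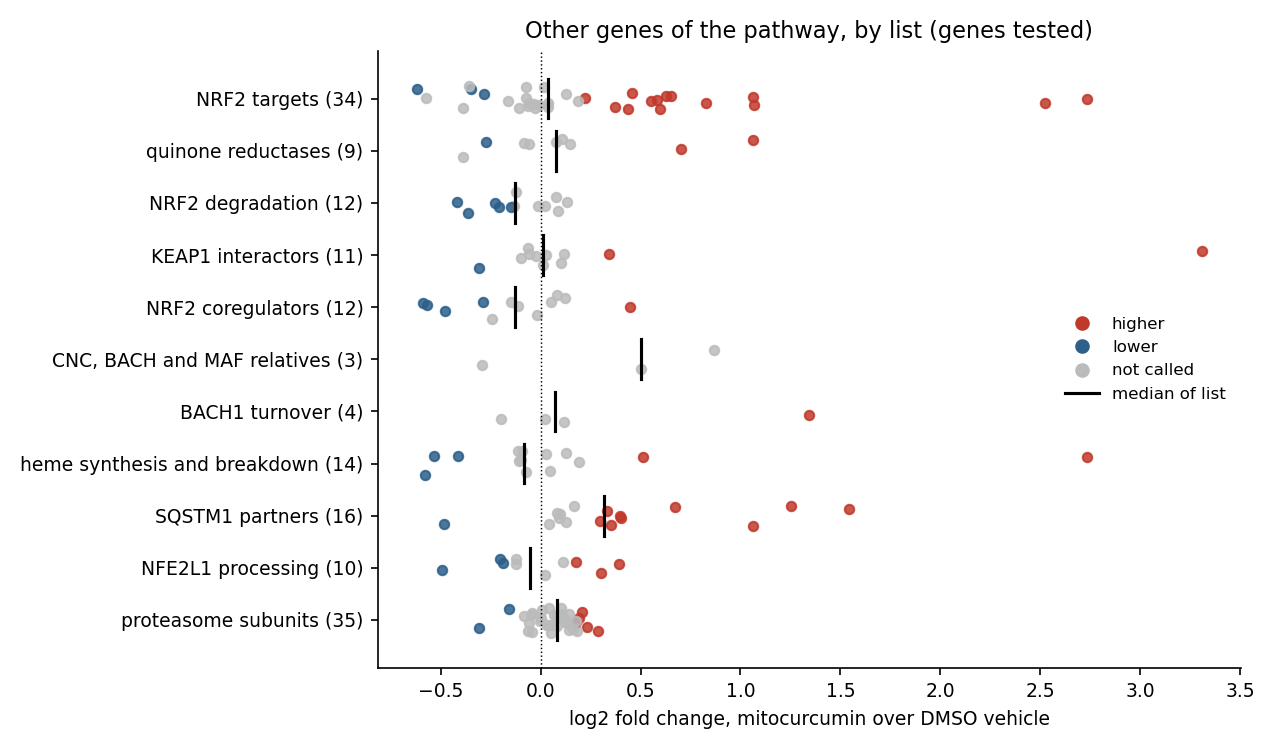
Log2 fold change of mitocurcumin over vehicle (horizontal axis) of every tested gene in 11 pathway lists, with the number tested in brackets, coloured by its edgeR call, and the median of each list as a black bar. The p62 partners have 9 of 16 genes higher with a median of 0.32, and the proteasome genes lie close to 0 with a median of 0.08.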

How the data were processed

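RNA was captured by its poly(A) tail and made into stranded libraries, per the labels' protocols. Reads were placed on GRCh38 according to the submitters' processing notes, with RefSeq genes per the file headers. Neither the aligner and counter nor any use of strand in counting is given in the sources used here. As deposited, the raw table held estimated counts, of which 20.1% to 21.4% of those above 0 were whole, and the deposited normalized values were log2 of the raw value over 1 factor per library, which held to 1.5e-06 where tested.

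Estimated counts were rounded, a step the planned count test needed, and tested with edgeR 4.0.16 in R 4.3.3 (quasi-likelihood F-test, robust, TMM scaling, filterByExpr at its settings of 10 counts and 15 in total, group as the only term). Of 58656 rows, 16481 were tested, and p-values were two-sided and adjusted by Benjamini-Hochberg over all of them. A gene was called at an adjusted p under 0.05. CPM used TMM-scaled totals of the tested genes. SE is the log2 fold change over the square root of F. Levels between genes were compared per kilobase of merged GENCODE v29 exons. The test was tried on simulated counts with 200 changed genes.

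Replicates of a group differed by more than sampling (chi-square per gene of 5.31 to 19.0), so none was counted as a duplicate. The same-numbered libraries' deviations correlated at 0.101, 0.017 and -0.010 for replicates 1 to 3, so the numbers were not taken to pair libraries. The 10 genes and the 11 pathway lists were chosen with earlier results of these data known. All 10 genes are described, and in each list the 2 that rose most and the 2 that fell most among called genes of mean CPM 1 or more, with those needed to spell out a count of 5 or fewer. Alternatives covered other scalings, filters and thresholds, DESeq2 1.42.0, limma 3.58.1 voom, limma on the deposited log2 values, a replicate term, unrounded counts, no robust estimates (chosen after seeing the data) and each library left out. Some genes that these rules select are not reported here.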

Additional observations from a re-analysis of the deposited data

How the results depend on the processing

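Of the 10 genes, SQSTM1, MAFG, MAFF, NFE2L1, NFE2L2 and BACH1 were called higher in all 18 alternatives, and no gene changed direction in any. NFE2L3, NQO1 and KEAP1 lost their calls in 6, 4 and 1 of them. At an adjusted p of 0.01 the genes called were 6 higher and 1 lower of the 10, against 1636 higher and 2018 lower of 16481 tested genes. Pathway-list genes then called were 32 higher and 15 lower, against 37 and 23 at 0.05. Leaving out 1 library at a time, 6 to 8 of the 10 genes were higher and 0 to 1 lower, where 0 was without mitocurcumin replicate 2. Pathway-list genes were higher in 31 to 51 cases, the 51 without vehicle replicate 1, and lower in 15 to 23, the 15 without mitocurcumin replicate 1 or 2. Over all genes 1850 to 2872 were higher and 2165 to 3216 lower. The 2872 and 3216 were without vehicle replicate 1, against 2425 and 2938 with all libraries. Between vehicle replicates, chi-square per gene was 13.3 and 19.0 for pairs with replicate 1 and 6.14 for the pair without it. Between mitocurcumin replicates it was 10.9 and 15.7 for pairs with replicate 3 and 5.31 for the pair without it. The cause of these shifts was not tested. With a replicate block, 8 of the 10 genes were higher and 1 lower, as without it, and 2643 genes were higher and 3163 lower in all, and no call of the 10 genes changed. Not every library correlated best with its own number. Searched on the forward strand alone, the antioxidant response element core was in 6.9% of promoters and the CEBP-ATF motif in 1.87%, because these motifs are not palindromes. The lowest counts, 317 to 543 for MAFK, limit the precision for that gene most.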

Other observations

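Rows within 2000 bases of the 10 genes were read after their values had been seen. SIRT7, a nuclear deacetylase gene that lies 93 bases from MAFG on the same strand, had 468, 417 and 536 counts after mitocurcumin, against 295, 242 and 269 with vehicle. It rose by 0.73 ± 0.12 on the log2 scale (edgeR adjusted p = 1.7e-04). MILIP, a noncoding gene on the other side of MAFG and on the opposite strand, was not called, at -0.16 ± 0.34 with 21 to 32 counts in each library. TMEM184A, which overlaps the end of MAFK on the opposite strand by 809 bases, was not called, at 0.40 ± 0.15 with an edgeR adjusted p of 0.0568.

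Among the genes whose log2 CPM over the 6 libraries followed SQSTM1 most closely, of 11163 with a mean CPM of at least 5, were AARS1, alanyl-tRNA synthetase (Pearson r = 0.99942), and HERPUD1, of endoplasmic reticulum protein quality control (0.9993). They rose by 1.52 and 1.74 on the log2 scale. For NFE2L2 the closest were DOCK9, a guanine nucleotide exchange factor (0.99829), GRB10, a signalling adaptor (0.99822), and TGIF1, a transcriptional repressor (0.99806), which rose by 0.74, 1.01 and 1.18. The 6 libraries share the 2 treatment groups, so these values mostly describe a common step between the groups.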
